A study of Arabidopsis thaliana with 8 samples.

Results

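The features described here report genes of plastid thiol redox control and of peroxide and superoxide removal in Arabidopsis thaliana. They were chosen by gene, through the platform annotation of the array, with earlier results of these data known: every feature assigned to exactly 1 of the genes AT2G04700 (FTRB), NTRC, AT3G52960 (PRXIIE), SRX or CCS, and every feature shared by exactly TAPX and SAPX. That gave 7 of the 3439 features, 5 with 1 gene and 2 shared by TAPX and SAPX, which together stand for 7 genes. The series holds total RNA from 8 samples in the Columbia 0 ecotype, each on a 1-channel array: 4 wild-type samples (WT) and 4 from a double mutant, psah2k, numbered 1 to 4 within each genotype. The line name points to photosystem I subunits H and K, while the sample description names subunits E1 and K, and 0 features were assigned to PSAE1, PSAE2, PSAH1, PSAH2 or PSAK, so the genotype was not checked from its own transcripts. The sources used here name no organ, plant age or growth condition and do not say whether replicates were separate plants, so the spread behind each p-value may be technical.

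Photosystem I passes electrons to ferredoxin. Part of that flow goes through ferredoxin-thioredoxin reductase, an enzyme with a catalytic subunit (FTRB) and a variable subunit, to plastid thioredoxins, which reduce disulfides of Calvin cycle and other enzymes in the light. NTRC is a second entry to the same thiol system, fed by NADPH: it joins a thioredoxin reductase and a thioredoxin in a single protein and is known as a reductant of 2-Cys peroxiredoxins. Downstream, the peroxiredoxin PRXIIE and the ascorbate peroxidases of thylakoid (TAPX) and stroma (SAPX) remove peroxides, sulfiredoxin (SRX) repairs over-oxidized 2-Cys peroxiredoxins, and CCS carries copper to Cu/Zn superoxide dismutases. In total RNA of a whole sample, fewer cells of a type and less transcript per cell cannot be told apart.

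The genotypes differed over the whole array, which bears on every value below. The median deposited intensity (linear scale, array units from 0 to 100) was between 0.304 and 0.336 on WT arrays and between 0.0506 and 0.0582 on psah2k arrays. Between 13.0% and 13.7% of features were listed at 0 on WT arrays, against 21.5% to 29.5% on psah2k arrays. Each feature was therefore given in 3 ways: its deposited intensity, its percentile rank within the array (0 for the dimmest position and 100 for the brightest), which no rescaling of an array can alter, and its log2 fold change after quantile normalization. The photosystem genes PSAN and LHB1B2, the 2 features with 1 gene from a list of 12 green-tissue markers, were bright in both genotypes, at mean percentile ranks of 97.4 and 99.1 in WT and 98.8 and 99.2 in psah2k. Their deposited intensities were higher in psah2k, at 11.9 ± 1.55 against 4.36 ± 0.884 for PSAN and at 19.3 ± 1.25 against 10.8 ± 2.14 for LHB1B2 (SD, n = 4 each). PSAN was called higher after quantile normalization (log2 1.02, limma adjusted p = 0.00490) and as deposited, and LHB1B2 as deposited (log2 0.86, limma adjusted p = 0.00251) but not after quantile normalization (log2 0.01, adjusted p = 0.961). The part of these markers in the results below was not tested. None of the 10 root markers listed had a feature with 1 gene.

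The catalytic subunit gene of ferredoxin-thioredoxin reductase rose and the peroxiredoxin gene PRXIIE fell in psah2k. Of the 7 features only these 2 kept their call and direction under all 4 scalings of the arrays. Among the 2353 features tested with limma, 5.95% were called higher and 15.6% lower under all 4 scalings. The PRXIIE call was lost with values of 0 replaced and with array pairs averaged, as given below. Of the other 5, NTRC, CCS and a TAPX/SAPX feature were lower on every psah2k array in deposited intensity, SRX and the second TAPX/SAPX feature overlapped, and all stood higher in rank. On the deposited scale the psah2k arrays lay wholly above the WT arrays for 1 of the 7 features and wholly below them for 4, against 5.21% and 64.8% of all features of the array. In percentile rank they lay wholly above for 6 of 7 and wholly below for 1, against 32.8% and 21.4% of all features. The 32.8% includes features listed at 0 on every array, because the rank shared by zeros was higher on every psah2k array. For 2 groups of 4 arrays that do not overlap, the exact permutation test (two-sided) gave p = 0.0286, the smallest it can give. Adjusted over all 3439 features this became 0.0408 for intensity and 0.0527 for rank, so no rank difference could pass a threshold of 0.05.

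**Figure D1:**
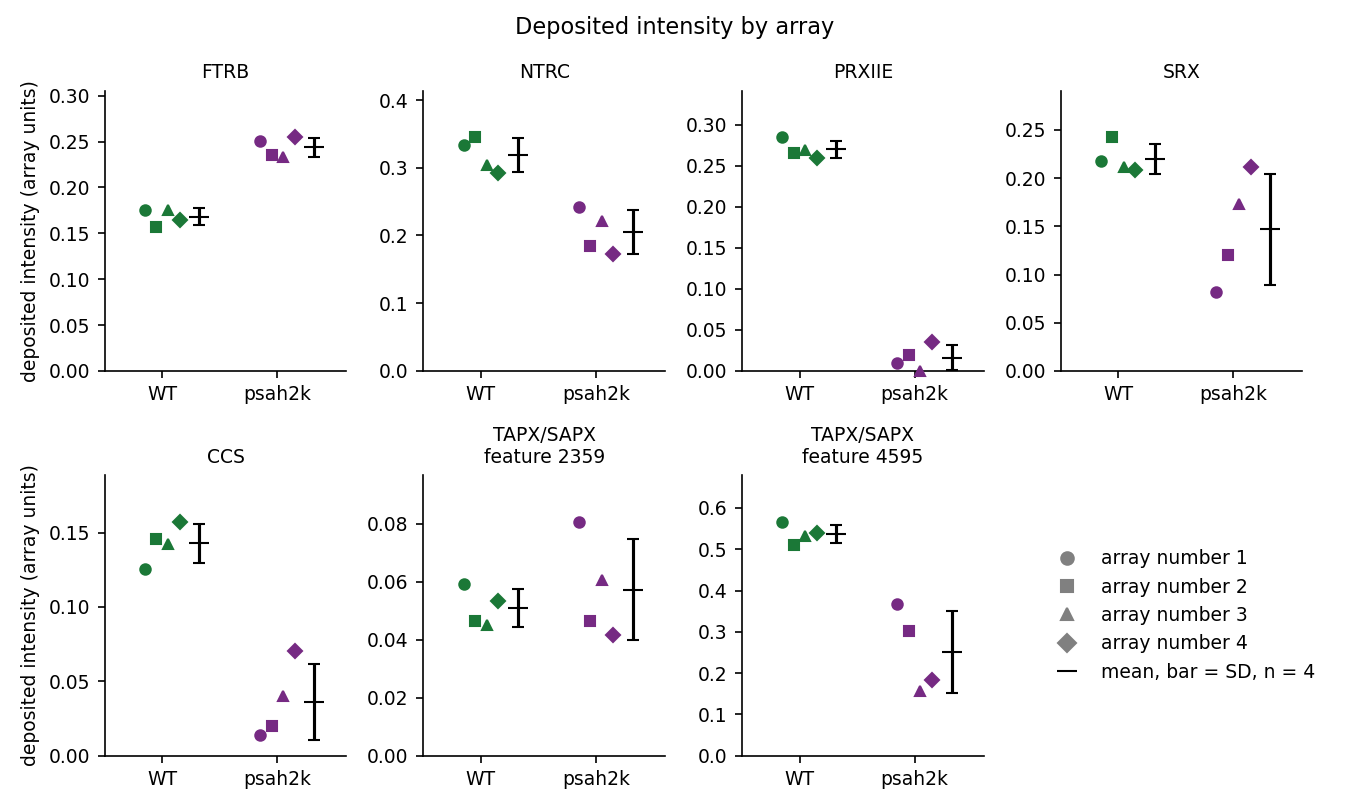
Deposited intensity (vertical axes, linear, each from 0) of the 7 features on the 4 WT and 4 psah2k arrays, with symbols for the array number and the mean with SD beside each group. FTRB is higher on every psah2k array, NTRC, PRXIIE, CCS and TAPX/SAPX feature 4595 are lower on every psah2k array, and SRX and TAPX/SAPX feature 2359 overlap.

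Among the reductases, FTRB showed the steadier deposited intensity within each genotype, though its rank varied more than that of NTRC on the WT arrays. AT2G04700 was at 0.176, 0.157, 0.176 and 0.165 on WT arrays 1 to 4 and at 0.251, 0.236, 0.233 and 0.255 on psah2k arrays 1 to 4. The arrays of the genotypes did not overlap, and the spread within psah2k (coefficient of variation 4.39%) was the smallest of the 7 features there. The mean intensity was 1.45-fold higher in psah2k, 0.244 ± 0.0107 against 0.168 ± 0.00928 (SD, n = 4 each). The transcript thus gained intensity on arrays whose medians were far lower, and its mean percentile rank went from 29.0 ± 2.28 to 78.9 ± 1.12 (SD, n = 4 each). Only 10 of the 3439 features had a larger gain in rank. With limma the log2 fold change was 2.52 (SE 0.15, adjusted p = 1.89e-05) after quantile normalization and 0.54 (adjusted p = 0.00447) as deposited. Its size depended on the values of 0 elsewhere on the arrays, with 4.68 when these were set to the lowest value above 0 and 4.24 with a pseudocount.

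NTRC, the NADPH-fed reductase, had the opposite course in intensity. It was at 0.334, 0.345, 0.304 and 0.293 on WT arrays 1 to 4 and at 0.242, 0.184, 0.222 and 0.173 on psah2k arrays 1 to 4. Every psah2k array lay below every WT array, with a mean 1.55-fold lower. In rank the order turned: NTRC stood between 48.2 and 51.0 on the WT arrays, near the middle of the array, and between 74.1 and 78.5 on the psah2k arrays. The log2 fold change followed the scale, with 1.15 (SE 0.14, limma adjusted p = 0.000354) after quantile normalization and −0.65 (SE 0.16, limma adjusted p = 0.00643) as deposited, both past the threshold. The mean rank gain of 26.4 points was exceeded by 246 features.

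The balance of the ferredoxin-linked and the NADPH-linked reductase was taken as the log2 ratio of FTRB over NTRC intensity within each array, a measure that a constant factor per array leaves unchanged. Only its difference between genotypes can be read, since levels of different features are not comparable. In WT 1 to 4 the ratio was −0.92, −1.14, −0.79 and −0.83, and in psah2k 1 to 4 it was 0.05, 0.36, 0.07 and 0.56. It was higher on every psah2k array, by 1.18 on average (−0.92 ± 0.16 to 0.26 ± 0.24, SD, n = 4 each), or 2.27-fold in favour of FTRB (exact permutation test, two-sided, p = 0.0286, not adjusted). The size of the shift ranged from 1.08 to 1.25 when any single array was left out. Such a shift was common on these arrays. Among all 1629915 pairs of features above 0 on every array, the log2 ratio did not overlap between the genotypes for 57.9%, and for 58.3% of pairs it moved by at least as much as that of FTRB and NTRC.

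**Figure D2:**
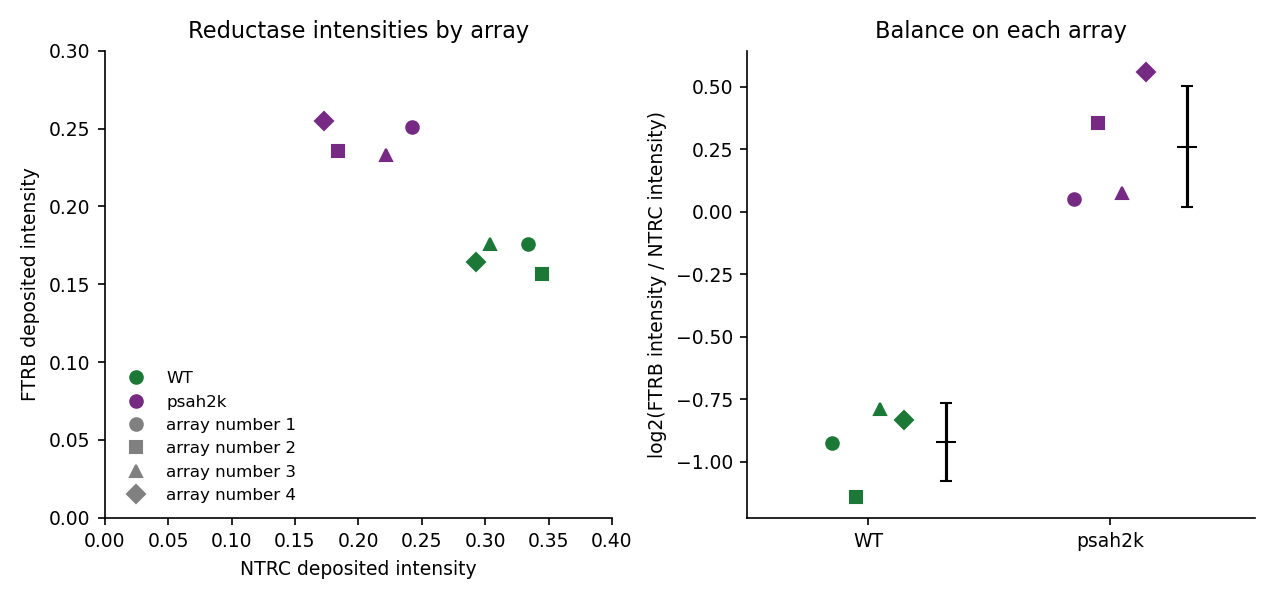
Left, deposited intensity of FTRB against NTRC on each of the 8 arrays. Right, log2 ratio of FTRB over NTRC intensity by genotype, with mean and SD (n = 4): all psah2k arrays, 0.05 to 0.56, lie above all WT arrays, −1.14 to −0.79.

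PRXIIE, the type II peroxiredoxin of plastids, was at or close to 0 on the psah2k arrays. AT3G52960 was at 0.285, 0.265, 0.270 and 0.260 on WT arrays 1 to 4. On psah2k arrays 1 to 4 it was at 0.0101, 0.0193, 0 and 0.0354. WT arrays were close together (coefficient of variation 3.99%), and even the highest psah2k array was far below the lowest WT array. It was also the single member to lose rank: from between 40.9 and 45.4 in WT to between 11.2 and 39.2 in psah2k, where 11.2 is the rank shared by all features listed at 0 on psah2k 3. With the value of 0 treated as missing, the log2 fold change was −1.40 (SE 0.36, limma adjusted p = 0.0157) after quantile normalization and −3.83 (limma adjusted p = 0.000204) as deposited, both from 3 psah2k arrays. The call was lost when the 0 was replaced by that array's lowest value above 0 (−2.98, adjusted p = 0.305) and with arrays 1-2 and 3-4 of a genotype averaged first (−1.20, adjusted p = 0.135). Without psah2k 3 the mean rank change was −7.10 points instead of −13.4, and with all arrays 781 features lost more rank than this gene.

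SRX, the sulfiredoxin gene, was spread widely over the psah2k arrays. It was at 0.218, 0.242, 0.211 and 0.209 on WT arrays 1 to 4 and at 0.0822, 0.120, 0.173 and 0.212 on psah2k arrays 1 to 4. The groups overlapped through psah2k 4, which lay within the WT range, and the mean difference in intensity did not pass (exact permutation test, two-sided, p = 0.0857). In percentile rank the groups were apart, at 34.4 to 37.8 in WT and 58.8 to 77.2 in psah2k. The log2 fold change was 1.38 (SE 0.28, limma adjusted p = 0.00474) after quantile normalization, but −0.67 (adjusted p = 0.0629) as deposited. After centring on the upper quartile it was 0.56 (95% interval −0.30 to 1.42, adjusted p = 0.222), so the call depended on the scaling.

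CCS, the copper chaperone of superoxide dismutase, was at 0.126, 0.145, 0.142 and 0.157 on WT arrays 1 to 4 and at 0.0140, 0.0197, 0.0404 and 0.0706 on psah2k arrays 1 to 4. All psah2k arrays lay below all WT arrays, with a mean 3.95-fold lower. Its rank nevertheless lay higher, at 34.2 to 54.1 against 22.5 to 28.3. After quantile normalization the log2 fold change was 0.38 (95% interval −0.66 to 1.42, limma adjusted p = 0.494), against −2.26 (adjusted p = 0.00327) as deposited. Ranked only among the 1806 features above 0 on every array, CCS gained 5.80 points and the groups were no longer apart (exact permutation test, two-sided, p = 0.286). The quantile-normalized log2 fold change was 0.015 without psah2k 4 and 0.68 without psah2k 1, and it became a call with 0 set to the lowest value above 0 (3.88, adjusted p = 0.000439) or with a pseudocount (3.07, adjusted p = 0.000629).

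The 2 features shared by the ascorbate peroxidase genes TAPX and SAPX did not give the same picture, and neither can be assigned to the thylakoid or the stromal enzyme. Feature 4595 was at 0.566, 0.511, 0.531 and 0.540 on WT arrays 1 to 4 and at 0.366, 0.303, 0.156 and 0.183 on psah2k arrays 1 to 4, below every WT array with a mean 2.13-fold lower. Feature 2359 was dim, at 0.0590, 0.0463, 0.0450 and 0.0533 in WT and at 0.0805, 0.0464, 0.0604 and 0.0417 in psah2k, where the groups overlapped (exact permutation test, two-sided, p = 0.571). In rank, feature 2359 went from 15.96 ± 0.504 to 50.1 ± 6.67 and feature 4595 from 69.8 ± 2.42 to 78.0 ± 5.004 (SD, n = 4 each). Among the features above 0 on every array the gain of feature 2359 was 18.9 points, against 34.1 among all. That of feature 4595 was 6.77 points, with the groups no longer apart (exact permutation test, two-sided, p = 0.257). After quantile normalization the log2 fold change of feature 2359 was 2.96 (SE 0.20, limma adjusted p = 3.38e-05), or 7.30 with 0 set to the lowest value above 0 and 5.61 with a pseudocount, and that of feature 4595 was 0.31 (95% interval −0.11 to 0.73, limma adjusted p = 0.187). As deposited they were 0.13 (adjusted p = 0.616) and −1.18 (adjusted p = 0.00582). The log2 ratio of feature 2359 over feature 4595 within an array was higher on every psah2k array, by 1.31 on average. Ratios did not overlap between the genotypes for 57.9% of all pairs of features above 0 on every array.

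**Figure D3:**
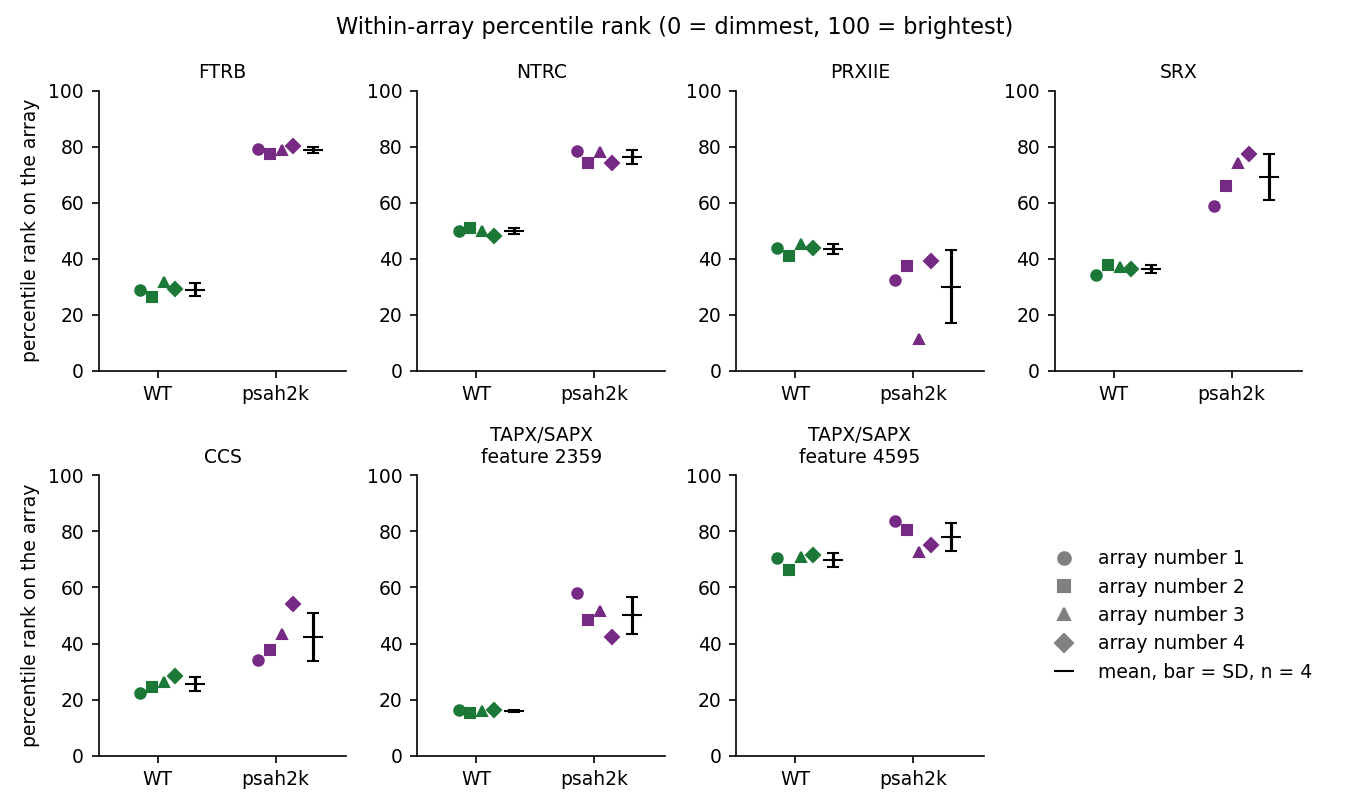
Percentile rank within the array (vertical axes, 0 to 100) of the 7 features on the 4 WT and 4 psah2k arrays, with the mean and SD beside each group. Ranks are higher on every psah2k array for 6 features and lower for PRXIIE, and the widest spread in psah2k is that of PRXIIE with 1 array listed at 0.

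The rank gains stood against a trend of the whole array. With features divided by mean WT rank into 4 equal bins, those of the dimmest bin moved by a median of 12.2 points in psah2k, those of the next bin by 4.90, those of the third by −7.24 and those of the brightest by −2.86. CCS and TAPX/SAPX feature 2359 lay in the dimmest bin, where 57.1% of features were higher in rank on every psah2k array. That share and the median of the bin also count features listed at 0 on every array. The rank shared by zeros was 6.51 to 6.86 on WT arrays and 10.7 to 14.7 on psah2k arrays. FTRB, PRXIIE and SRX lay in the second bin, where the share higher in rank was 25.2%. NTRC and TAPX/SAPX feature 4595 lay in the third, where it was 25.03%. The gains of 49.9 points for FTRB and 32.7 for SRX were above the upper quartile of 19.1 points in their bin, and that of NTRC, 26.4, above the 10.1 of its own. That of CCS, 16.9, and that of feature 4595, 8.18, lay below the upper quartiles of theirs, 19.9 and 10.1. Feature 2359, with 34.1, lay above the 19.9 of its bin. PRXIIE, with −13.4, lay below the lower quartile of −8.15 in its bin. There 8.84% of features were lower in rank on every psah2k array. Higher in rank but lower in intensity, without overlap in either measure, were 8.23% of all features, NTRC, CCS and feature 4595 among them.

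**Figure D4:**
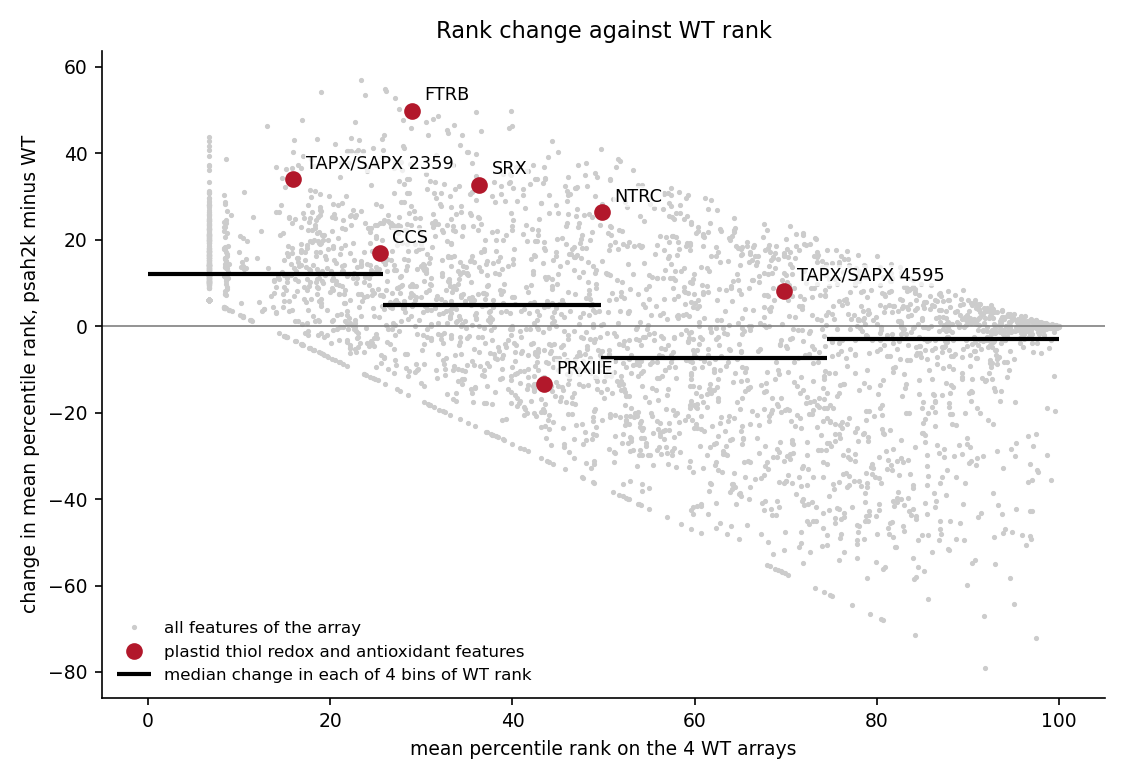
Change in mean percentile rank, psah2k minus WT (vertical axis), against mean percentile rank on the 4 WT arrays (horizontal axis) for all 3439 features (grey) and the 7 members (red), with the median of each of 4 bins of WT rank as a black line. FTRB, with 49.9 points, lies near the upper edge of the cloud, and PRXIIE, with −13.4 points, is the single member below 0.

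All 7 features passed the filter of 3 values above 0 in each genotype. After quantile normalization limma called 4 of the 7 higher and 1 lower in psah2k, where 26.3% and 26.6% of the 2353 tested features were called. As deposited it called 1 higher and 4 lower, where the shares were 7.31% and 73.0%. FTRB was among the 5.95% called higher and AT3G52960 among the 15.6% called lower under all 4 scalings. Over the 7 features the log2 fold changes had a median of 1.15 when quantile normalized, −0.67 as deposited, 1.26 when centred on the median and 0.56 when centred on the upper quartile, beside −0.12, −1.77, 0.18 and −0.53 for all tested features. NTRC and feature 4595 changed sign between scalings, as did SRX and CCS, so a direction for these genes holds only with its scale.

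**Figure D5:**
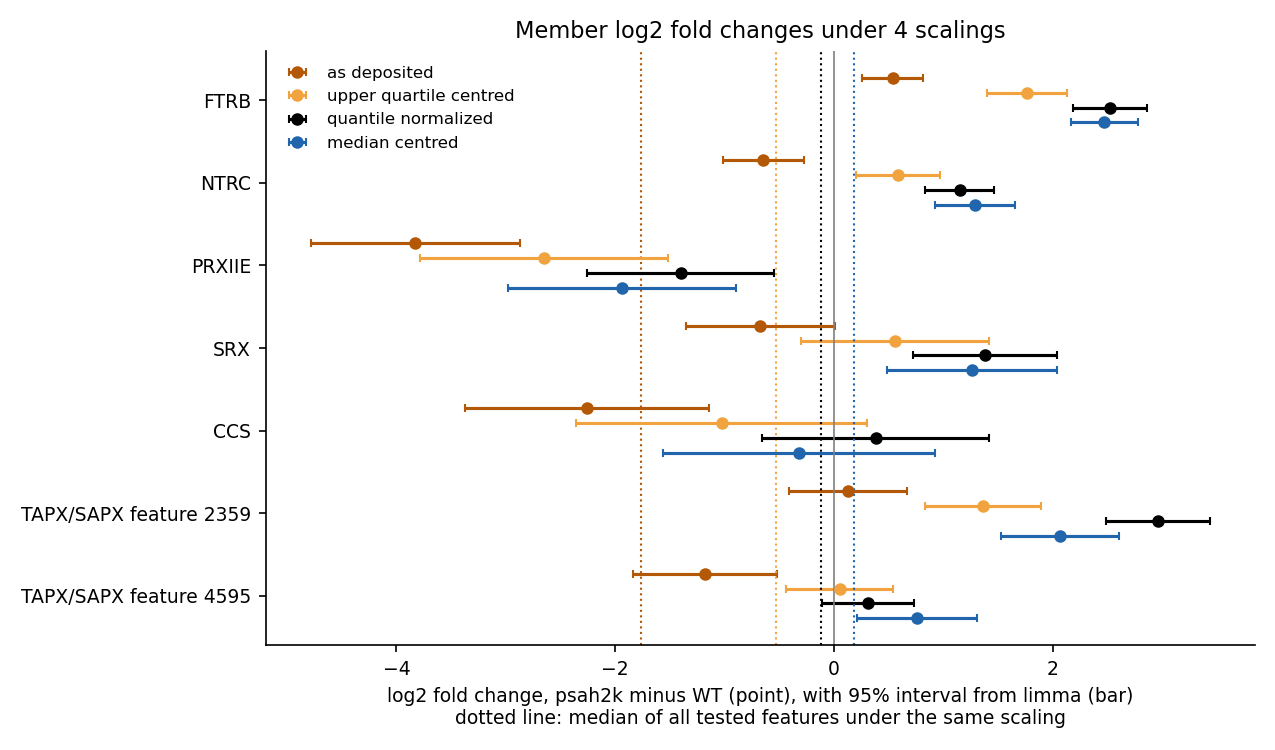
Log2 fold change, psah2k minus WT, of the 7 features (points) with 95% intervals from limma (bars) under 4 scalings of the arrays. Dotted lines mark the median of all tested features under each scaling. FTRB lies above 0 and PRXIIE below 0 with their whole intervals under each scaling.

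Arrays numbered 1-2 and 3-4 differed over whole arrays. Medians were 0.333 and 0.336 on WT 1 and 2, against 0.304 and 0.305 on WT 3 and 4. On psah2k 1 and 2, 28.3% and 29.5% of features were listed at 0, against 22.4% and 21.5% on psah2k 3 and 4. With the pairs as a random block, limma estimated a within-pair correlation of 0.313, so the 4 arrays of a genotype may not be independent. Some members also split by pair within psah2k. SRX and CCS were higher on psah2k 3 and 4 than on 1 and 2, by 1.90-fold and 3.30-fold in mean intensity, and TAPX/SAPX feature 4595 was lower, at 0.506 of the level. FTRB showed no such split, with means of 0.243 and 0.244. The labels name no batch, and the part of these pairs in the results was not tested beyond the values that follow. With arrays 1 and 2 alone the quantile-normalized log2 fold changes of FTRB, NTRC and SRX were 2.56, 1.07 and 0.92, and with arrays 3 and 4 alone they were 2.48, 1.22 and 1.82, each past the threshold in limma. SRX missed the threshold with the pairs averaged first (limma adjusted p = 0.0734), while FTRB and NTRC passed (adjusted p = 0.0162 and 0.0308). The reductase balance then shifted by 1.17. Its exact permutation p was 0.333, the smallest possible with 2 values against 2.

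Few other genes of this system were measured. Of 37 plastid thiol redox and antioxidant genes listed, 5 had a feature with 1 gene, all of them described above, of which 3 were called higher and 1 lower after quantile normalization, beside 26.3% and 26.6% of all tested features. As deposited 1 was called higher and 3 lower, beside 7.31% and 73.0%. A feature shared by the plastid thioredoxin genes THX, TY1 and ty2 went from 0.402, 0.390, 0.281 and 0.346 on WT arrays 1 to 4 to 0.00751, 0, 0.0429 and 0 on psah2k arrays 1 to 4. A feature shared by the glutathione reductase genes GR (plastid) and GR1 was between 0.165 and 0.211 in WT, and was listed at 0 on 3 psah2k arrays and at 0.0154 on psah2k 4. Both had too few values above 0 to be tested. Every psah2k array lay below every WT array, as for 64.8% of all features.

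Of 12 thioredoxin-regulated enzymes, 3 had a feature with 1 gene. AT5G58330, the NADP-dependent malate dehydrogenase of the plastid, which thioredoxin activates, was between 0.391 and 0.439 in WT and at 0.0449, 0, 0.0804 and 0.0159 on psah2k arrays 1 to 4. Its log2 fold change, with the 0 as missing, was −1.30 (limma adjusted p = 0.0542) after quantile normalization and −3.43 (adjusted p = 0.000927) as deposited. PRK, the thioredoxin-regulated kinase of the Calvin cycle, rose (log2 1.10, limma adjusted p = 0.00361). SBPASE was listed at 0 on all WT arrays and at 0.0161, 0.0185, 0.0381 and 0 on psah2k arrays 1 to 4, and was not tested. A feature shared by ATPC1 and ATPC2, which encode the gamma subunit of the plastid ATP synthase, was at 0.706 ± 0.0371 in WT and 0.831 ± 0.0282 in psah2k (SD, n = 4 each). Its log2 fold change was 1.12 (limma adjusted p = 0.000503) after quantile normalization and 0.24 (adjusted p = 0.102) as deposited. A feature shared by AT1G73110 and RCA was at 1.44 ± 0.0708 in WT and 1.35 ± 0.0670 in psah2k (SD, n = 4 each). It was not called, with log2 0.18 (limma adjusted p = 0.403) after quantile normalization and −0.09 (adjusted p = 0.490) as deposited. Another feature shared by AT1G73110 and RCA was listed at 0 on all WT arrays and was not tested. On psah2k arrays 1 to 4 it was at 0.00748, 0, 0 and 0. AT5G58330 was also the single measured gene in a list of 10 genes linked to the electron flow around the reductases. Its place in that list does not mean that it supplies them. Of 26 antioxidant and thiol redox genes outside plastids 0 had a feature of their own.

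The features with 1 gene whose rank profile over the 8 arrays was most like that of each member were found by the root mean square difference in percentile rank among 687 candidates. Closest to FTRB was AT1G04420 (1.94 points), with intensities of 0.153 ± 0.00931 in WT and 0.263 ± 0.0162 in psah2k (SD, n = 4 each), then AT3G06870 (4.37). Closest to NTRC were AT4G30680 (1.69) and AT5G44000 (5.03). SRX was followed most closely by AT5G61470 (3.75) and AT3G27550 (5.62), and CCS by AT2G39100 (5.38) and AT1G21730 (6.38). For PRXIIE, whose ranks varied most, OSB1 (7.19) and AT4G33480 (7.47) came nearest. Feature 4595 was nearest to AT5G56070 (3.31) and THIC (4.84), and feature 2359 to AT5G43770 (5.63) and AT4G27390 (7.12).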

How the data were processed

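The deposited series matrix holds 1 intensity for each feature and array, on a linear scale; how the authors corrected background or scaled the arrays is not stated in these sources. Groups and numbers come from the sample titles. Features were named from GEO's platform annotation: 692 had 1 gene, 870 several, and 1877 are unnamed here. Of the 692, 690 were matched to the TAIR10.1 RefSeq table, used for names only.

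Intensities were log2 transformed with 0 as missing and quantile normalized. The 2353 features having 3 or more values per genotype entered limma 3.58.1 (lmFit, eBayes) in R 4.3.3, with two-sided p-values Benjamini-Hochberg adjusted over all tested features, with a threshold of 0.05. Percentile ranks took mean ranks for ties over all features. Ranks and intensities were compared by exact permutation tests, computed for every feature and adjusted over all of them. The planned adjustment over the 7 members alone was not used. The reductase ratio was compared by the same test for that pair only, without adjustment. Exact permutation p-values are printed unadjusted unless the text calls them adjusted. The limma step and the exact test were tested on simulated data. The number of arrays limits the precision. All 7 members were described whatever their values; single genes of the lists, and the 2 features most alike in rank, were named by a set rule. Members, lists and tests were chosen with earlier results of these data known. Alternatives covered scaling, values of 0, a pseudocount of 0.000143, filters on dim features, the variance model, array weights, replicate number as a block, array pairs and each array left out. Versions of other tools: Python 3.11.15, scipy 1.17.1, matplotlib 3.10.9.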

Additional observations from a re-analysis of the deposited data

How the results depend on the processing

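Of all tested features, 1246 were called, 620 higher and 626 lower. As deposited 1890 were called (172 higher, 1718 lower), with numbers 1-2 and 3-4 averaged 689 (346 and 343), and with numbers 3 and 4 only 820, of which 364 were lower. Lower calls were 396 after median centring, 337 with 0 set to the smallest positive value and 366 with a pseudocount. Leaving out single arrays gave 1028 to 1318 calls, 534 to 643 higher and 494 to 690 lower. The sign turned for NTRC (−0.65), SRX (−0.67), CCS (−2.26) and TAPX/SAPX feature 4595 (−1.18) as deposited, for CCS after median (−0.32) and upper quartile centring (−1.03) and with numbers 1 and 2 only (−0.21), and for feature 4595 with numbers 3 and 4 only (−0.019). The cause was not tested. AT3G52960 missed the threshold with a pseudocount (adjusted p = 0.298). CCS passed with 0 set to the smallest positive value (log2 3.88) or a pseudocount (3.07), and feature 4595 after median centring (0.76). Leaving out any single array changed no member's call after quantile normalization. Deposited intensities divided by the array median, and rescaled to the mean of the 8 medians, differed upwards by 0.522 for NTRC, 0.369 for SRX, 0.0371 for CCS and 0.566 for feature 4595. Divided by the upper quartile these were 0.238, 0.178, −0.0134 and 0.192. Feature 2359 then reached the smallest exact permutation p (differences of 0.168 and 0.0908). In rank, feature 4595 gained 6.77 points among features above 0 on all arrays (exact permutation p = 0.257), and the rank of PRXIIE changed by −12.4 points (exact permutation p = 0.0571) among features with 1 gene and the members. The reductase balance shifted by 1.37 after quantile normalization and by 1.18 with a pseudocount.

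The replicate numbers are shared by the genotypes, but the labels do not say that they pair the samples. Deviations of same-numbered arrays from their genotype means correlated at 0.0891, 0.126, 0.102 and 0.0561 over 1806 features, so they were not treated as pairs, although each array correlated best with the same number among the arrays of the other genotype. With the replicate block 1087 features were called, 558 higher and 529 lower, and among the members AT3G52960 alone changed its call (adjusted p = 0.0562). The paired exact test of the balance cannot go below 0.125 with 4 pairs, which is the value it gave.

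AT3G52960, CCS and TAPX/SAPX feature 2359 were dim in psah2k, with intensities under 0.1 on every psah2k array. The sizes of their log2 fold changes depended on how values of 0 were treated, as did that of FTRB.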

Other observations

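Ratios between the 6 member features with values on all arrays were compared in the same way as the balance of the reductases. Of 15 pairs, 8 did not overlap between the genotypes, beside 57.9% of all pairs of features. FTRB stood higher against NTRC, SRX, CCS and TAPX/SAPX feature 4595 on every psah2k array, by 1.18, 1.21, 2.79 and 1.71 on the log2 scale. Against feature 2359 its ratio moved by 0.41 with overlap (exact permutation test, two-sided, p = 0.171, not adjusted over the 15 pairs). The ratio of NTRC over SRX moved by 0.03 (exact permutation test, two-sided, p = 0.943), with a SD of 0.05 among WT arrays and 0.77 among psah2k arrays.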
